A study of Mus musculus with 8 samples.

Results

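The Ikaros zinc finger family consists of 5 genes in the mouse, Ikzf1 (Ikaros), Ikzf2 (Helios), Ikzf3 (Aiolos), Ikzf4 (Eos) and Ikzf5 (Pegasus). They were followed across 4 sorted populations of mouse thymocytes on 8 one-colour microarrays. The members were found by matching the RefSeq accession of each probe to these symbols. This gave 10 probes for 5 genes, among 55681 probes and 21154 genes on the array. Ikzf4 had 3 probes, Ikzf1, Ikzf2 and Ikzf5 had 2 each, and Ikzf3 had 1. All 10 probes were well above background on all 8 arrays. Ikzf1 and Ikzf3 lie on mouse chromosome 11, Ikzf2 on chromosome 1, Ikzf4 on chromosome 10 and Ikzf5 on chromosome 7.

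Ikaros family proteins bind DNA through N-terminal zinc fingers and pair with themselves and with each other through C-terminal zinc fingers. They recruit corepressors, among them the NuRD complex, a chromatin remodeller that carries histone deacetylases, and the Sin3 and CtBP proteins. Ikaros is needed for lymphocyte development, and Aiolos is best known from B cells. Helios and Eos are enriched in regulatory T cells (Treg), where Eos is known as a partner of Foxp3, the transcription factor that defines the lineage. Pegasus is the most divergent member and binds other DNA sequences.

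CD4 single-positive thymocytes, which have kept CD4 and lost CD8, were lysed without culture, and each population had 2 biological replicates. The Nr4a-TKO preTreg cells were Treg precursors of the genotype labelled Nr4a-TKO, which names the Nr4a nuclear receptors, and came from a gate of high CD25, high GITR and high Nr4a3. The Foxp3-KO preTreg cells were precursors of the genotype labelled Foxp3-KO, from a gate of high CD25 and a Foxp3 reporter. The wild-type Treg cells (WT Treg) were sorted as Foxp3-positive, and the wild-type conventional T cells (WT Tconv) as low in CD25. With no wild-type precursors in the set, a precursor population differed from a wild-type one in both genotype and gate. What was deleted of Foxp3 and of the Nr4a genes, the ages and the strains were not given in the labels or file headers.

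Every level below is a log2 signal on which 0 is the 75th percentile of the array, and a gene is described by its brightest probe. Differences are log2 differences with their standard errors from 1 limma fit over all 8 arrays. P-values were adjusted by Benjamini-Hochberg over the 13498 genes bright enough to test, with a threshold of 0.05, and all 5 members were among these genes. Per array, 47.7% to 52.1% of probes were well above background. Replicates correlated at r = 0.976 (Foxp3-KO) to 0.997 (WT Tconv) across genes, which are not independent. All 8 arrays were on 1 slide, and per the file names the Nr4a-TKO and WT Tconv arrays shared one row of it, and the Foxp3-KO and WT Treg arrays the other. Only Nr4a-TKO against WT Tconv and Foxp3-KO against WT Treg were compared within a row, and in the other 4 of the 6 comparisons slide row and group cannot be told apart. Of 13 measured Treg genes, 11 were higher in Nr4a-TKO, 9 in Foxp3-KO and 11 in WT Treg than in WT Tconv. Of all tested genes, 21.4%, 10.4% and 13.8% were. The list of Treg genes includes Foxp3, Il2ra, which encodes CD25, and Tnfrsf18, which encodes GITR. These are markers of the sorting gates, so the counts are partly set by the sorting and are no independent check of identity. Gpr83, a receptor gene of that list, was lower in Nr4a-TKO (-0.89) and Foxp3-KO (-0.99). Foxp3 was at 3.80 and 3.25 in arrays labelled Nr4a-TKO, 1.97 and 1.74 in arrays labelled Foxp3-KO, 5.0 and 4.72 in WT Treg, and -3.40 and -3.79 in WT Tconv. Nr4a1 and Nr4a2 signal was also present in the arrays labelled Nr4a-TKO, at 7.85 and 3.80 on average, against 6.84 and -1.54 in WT Tconv. Since it is not known whether these probes lie inside the deleted parts, they check no genotype.

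The family did not move as a block. Helios transcripts were 16.4-fold to 40.5-fold higher in the 3 populations of the Treg lineage than in WT Tconv. Eos transcripts were 2.21-fold higher in Nr4a-TKO precursors, 10.8-fold in Foxp3-KO precursors and 17.3-fold in WT Treg, and Eos was the member most reduced in Nr4a-TKO precursors relative to WT Treg. Ikaros went the other way and was lower in all 3 populations than in WT Tconv. Aiolos and Pegasus differed by less than 0.8 log2 units in every comparison. In bulk RNA of sorted cells, fewer cells of a type and less RNA per cell cannot be told apart.

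**Figure D1:**
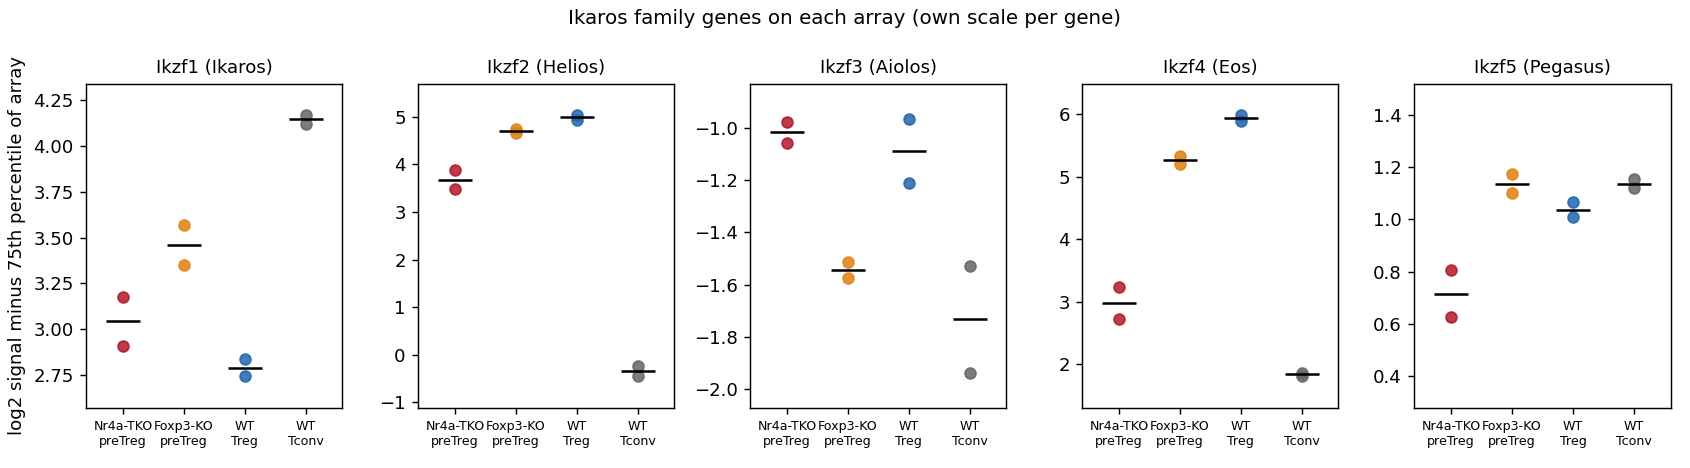
Log2 signal of the 5 family genes on each array (vertical axis, relative to the 75th percentile of the array, own scale per gene) in Nr4a-TKO preTreg, Foxp3-KO preTreg, WT Treg and WT Tconv. Points are the 2 arrays of a group and lines their mean. Ikzf2 and Ikzf4 lie lowest in WT Tconv, and Ikzf1 lies highest there.

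Ikzf2, which encodes Helios, a marker of thymus-derived Treg, was the family member most raised over WT Tconv in each of the 3 populations. Its level was 3.88 and 3.48 in Nr4a-TKO precursors, 4.66 and 4.74 in Foxp3-KO precursors, 5.04 and 4.94 in WT Treg, and -0.25 and -0.46 in WT Tconv. The WT Tconv arrays were the lowest by a wide margin, and the 4 groups did not overlap. Against WT Tconv, Ikzf2 was 16.4-fold higher in Nr4a-TKO (4.03 ± 0.15, limma adjusted p = 0.000166), 33.2-fold higher in Foxp3-KO (5.05 ± 0.15, adjusted p = 0.000176) and 40.5-fold higher in WT Treg (5.34 ± 0.15, adjusted p = 0.000113). Of all tested genes, 0.393% had a larger rise in WT Treg, 0.378% in Foxp3-KO and 3.02% in Nr4a-TKO. These 3 comparisons share the WT Tconv arrays.

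Nr4a-TKO precursors had 2.47-fold less Ikzf2 than WT Treg (-1.31 ± 0.15, limma adjusted p = 0.00332) and 2.03-fold less than Foxp3-KO precursors (-1.02 ± 0.15, adjusted p = 0.00787). Foxp3-KO precursors and WT Treg, neighbours in this order, did not differ past the threshold (-0.29 ± 0.15, 95% interval -0.67 to 0.09, adjusted p = 0.307). The other Ikzf2 probe gave -1.21 for Nr4a-TKO against WT Treg and -0.52 for Foxp3-KO against WT Treg, the second again short of the threshold (limma adjusted p = 0.0862). The order of the groups was thus Nr4a-TKO below Foxp3-KO and WT Treg, with WT Tconv far below them.

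Ikzf4, which encodes the Foxp3 partner Eos, separated the precursors more widely. It was at 3.23 and 2.73 in Nr4a-TKO precursors, 5.21 and 5.33 in Foxp3-KO precursors, 5.99 and 5.90 in WT Treg, and 1.87 and 1.80 in WT Tconv. The Nr4a-TKO arrays lay nearer to WT Tconv than to either of the other populations, and no groups overlapped. Against WT Tconv, Ikzf4 was 2.21-fold higher in Nr4a-TKO (1.14 ± 0.17, limma adjusted p = 0.00464), 10.8-fold higher in Foxp3-KO (3.43 ± 0.17, adjusted p = 0.000528) and 17.3-fold higher in WT Treg (4.11 ± 0.17, adjusted p = 0.0002).

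Relative to WT Treg, Ikzf4 was 7.80-fold lower in Nr4a-TKO precursors (-2.96 ± 0.17, limma adjusted p = 0.000619), and 0.459% of tested genes had a larger fall. Relative to Foxp3-KO precursors it was 4.89-fold lower in Nr4a-TKO (-2.29 ± 0.17, adjusted p = 0.00142). Foxp3-KO precursors had a value 0.67 below WT Treg, with a 95% interval of -1.10 to -0.25, which missed the threshold after adjustment over all genes (limma adjusted p = 0.0826). That comparison passed with an intensity trend (adjusted p = 0.0379) and with the mean of the 3 probes (adjusted p = 0.0356). It also passed without either Nr4a-TKO array, at adjusted p = 0.0328 each time, an array that takes no part in the difference but enters the shared estimate of the spread.

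The 3 Ikzf4 probes did not give the same sizes. The other bright probe gave 1.16 for Nr4a-TKO, 3.46 for Foxp3-KO and 4.19 for WT Treg against WT Tconv, close to the values above. The dim probe, whose signal never exceeded -0.50, gave 1.20 for WT Treg, and values of 0.61 for Foxp3-KO and -0.21 for Nr4a-TKO that were not past the threshold (limma adjusted p = 0.0636 and 0.383). All 3 probes placed Nr4a-TKO below WT Treg, by -2.96, -3.03 and -1.41, and each of these passed the threshold.

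**Figure D2:**
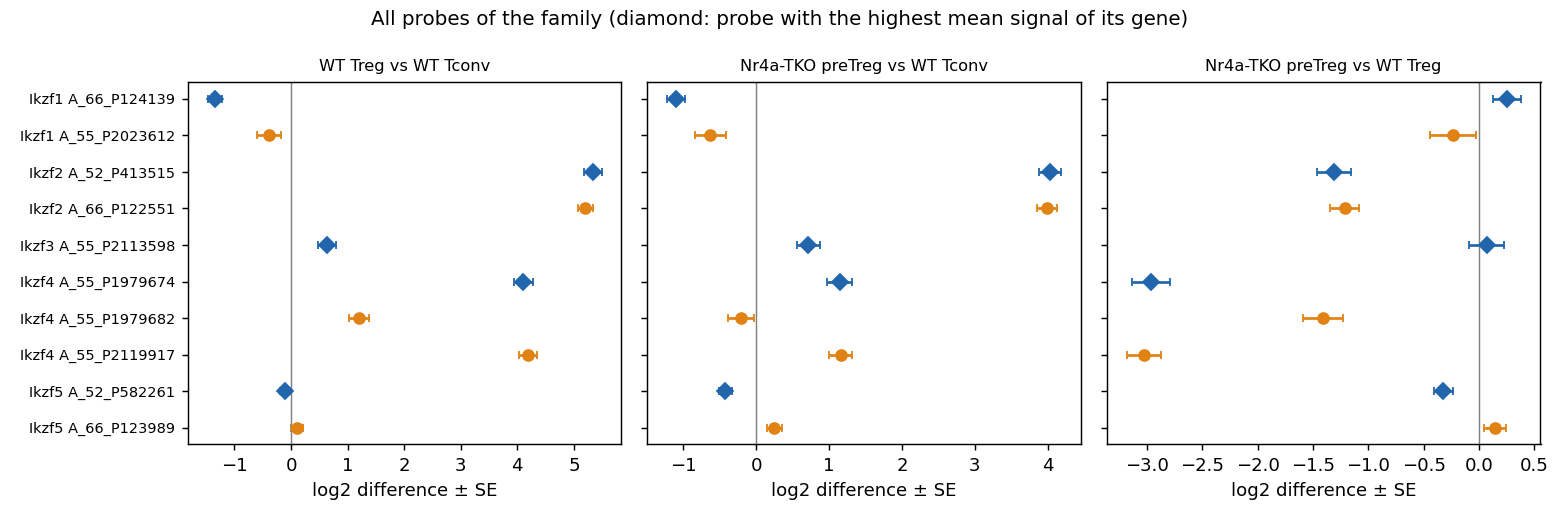
Log2 difference of each of the 10 family probes (horizontal axis, with standard error) for WT Treg against WT Tconv, Nr4a-TKO against WT Tconv and Nr4a-TKO against WT Treg. Diamonds are the brightest probe of each gene and circles its other probes, which agree closely for Ikzf2 and lie on opposite sides of 0 for Ikzf5.

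Eos and Helios were also compared within each array by their brightest probes. Ikzf4 minus Ikzf2 was -0.65 and -0.75 in Nr4a-TKO, 0.54 and 0.59 in Foxp3-KO, 0.95 and 0.96 in WT Treg, and 2.11 and 2.26 in WT Tconv. The value depends on the 2 probes, so only its change between groups can be read. It was 1.66 lower in Nr4a-TKO than in WT Treg, and 1.27 lower than in Foxp3-KO. The groups did not overlap in any of the 6 comparisons, and an exact two-sided permutation test gave p = 0.333 in each, the smallest that 2 arrays against 2 can give. The gap rests on the bright Ikzf4 probes. The dim Ikzf4 probe was at -1.41 in Nr4a-TKO against WT Treg and -0.82 against Foxp3-KO, where the Ikzf2 probes gave -1.31 and -1.21, and -1.02 and -0.69.

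**Figure D3:**
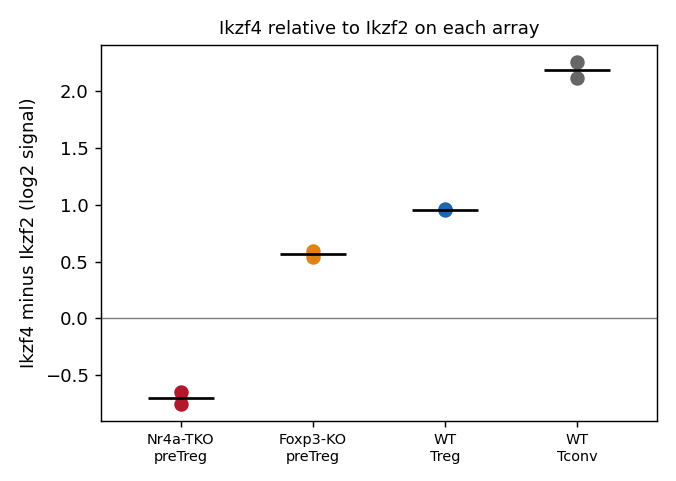
Ikzf4 minus Ikzf2 on each array (vertical axis, log2 signal) in Nr4a-TKO preTreg, Foxp3-KO preTreg, WT Treg and WT Tconv. Points are arrays and lines the mean of 2, and the Nr4a-TKO arrays are the ones below 0.

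Ikzf1 encodes Ikaros, the founding member of the family. RefSeq promoter windows were at hand for 2 members, Ikzf1 and Ikzf5, and those of Ikzf1 are printed. Whether motifs in them bear on its level was not tested. Each window runs from 250 bases before to 50 bases after an annotated start on the plus strand of GRCm38.p6. The capitals mark matches to the Ikaros family core GGGAA on the opposite strand, which reads TTCCC in these letters.
Ikzf1 chr11:11685675-11685974: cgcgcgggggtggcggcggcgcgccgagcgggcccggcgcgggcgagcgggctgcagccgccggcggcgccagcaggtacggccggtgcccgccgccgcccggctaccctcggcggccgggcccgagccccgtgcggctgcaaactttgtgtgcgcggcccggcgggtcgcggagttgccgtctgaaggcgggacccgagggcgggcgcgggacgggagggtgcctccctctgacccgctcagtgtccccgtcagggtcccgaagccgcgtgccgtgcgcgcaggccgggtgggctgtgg
Ikzf1 chr11:11689927-11690226: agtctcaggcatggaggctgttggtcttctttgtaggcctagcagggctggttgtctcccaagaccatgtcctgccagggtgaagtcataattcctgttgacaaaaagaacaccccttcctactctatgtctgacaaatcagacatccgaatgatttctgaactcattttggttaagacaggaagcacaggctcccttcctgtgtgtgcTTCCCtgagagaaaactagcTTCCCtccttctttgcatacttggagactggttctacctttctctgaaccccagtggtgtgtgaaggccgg
The first window, 81.3% G and C, holds no GGGAA on either strand, and the second, 49% G and C, holds 2 on the opposite strand. The 1 window of Ikzf5 in the same table holds 1 match on the gene's own strand. Of 32851 windows of this length for all genes, 62.7% hold at least 1 GGGAA on either strand, so a match is common. The Nr4a response element AAAGGTCA (1.51% of windows) and the forkhead motif GTAAACA (3.65%) occur in none of these 3 windows on either strand, which says only that these letters are not there. Promoter windows of Ikzf2, Ikzf3 and Ikzf4 were not used here.

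Ikzf1 was at 2.91 and 3.18 in Nr4a-TKO precursors, 3.35 and 3.57 in Foxp3-KO precursors, 2.84 and 2.74 in WT Treg, and 4.12 and 4.17 in WT Tconv. Both WT Tconv arrays lay above the other 6. Against WT Tconv, Ikzf1 was 2.14-fold lower in Nr4a-TKO (-1.10 ± 0.12, limma adjusted p = 0.00209), 1.60-fold lower in Foxp3-KO (-0.68 ± 0.12, adjusted p = 0.0176) and 2.55-fold lower in WT Treg (-1.35 ± 0.12, adjusted p = 0.0015). The dimmer second probe gave -0.63, -0.38 and -0.39 for the same comparisons, in the same direction, and none passed (limma adjusted p = 0.056, 0.232 and 0.206). The Foxp3-KO call was lost in 6 of 19 alternatives, the second probe among them. It was lost with the mean of the probes (limma adjusted p = 0.0669) and with only the 2 groups in the fit (adjusted p = 0.0526). Leaving out either WT Tconv array or Foxp3-KO replicate 1 also lost it.

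Among the 3 Treg lineage populations, Ikzf1 was highest in Foxp3-KO precursors. It was 1.59-fold higher there than in WT Treg (0.67 ± 0.12, limma adjusted p = 0.04). Nr4a-TKO precursors had 1.33-fold less than Foxp3-KO precursors (-0.42 ± 0.12, adjusted p = 0.0498) and did not differ past the threshold from WT Treg (0.25 ± 0.12, 95% interval -0.05 to 0.56, adjusted p = 0.16). The first 2 of these calls were close to the threshold and were lost in 11 and 13 of 19 alternatives. With median scaling they had adjusted p of 0.0501 and 0.0993, with no filter on dim probes 0.0841 and 0.0595, and with only the 2 groups in the fit 0.159 and 0.169. The deposited matrix gave 0.0513 for the second. With the replicate number as a block they had adjusted p of 0.0542 and 0.0543, and the second probe gave 0.01 and -0.24 (limma adjusted p = 0.982 and 0.406). The WT Treg comparison lost its call without either WT Tconv array, either WT Treg array or Foxp3-KO replicate 2 (adjusted p = 0.0828 to 0.182). The Foxp3-KO comparison lost it without any of these or without Nr4a-TKO replicate 1 (adjusted p = 0.0816 to 0.187).

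Ikzf3, which encodes Aiolos, had a single probe with dim signal. It was at -0.98 and -1.06 in Nr4a-TKO precursors, -1.57 and -1.51 in Foxp3-KO precursors, -1.21 and -0.96 in WT Treg, and -1.53 and -1.94 in WT Tconv. The Nr4a-TKO and WT Treg arrays overlapped, and so did the Foxp3-KO and WT Tconv arrays, with the first pair above the second. Against WT Tconv, Ikzf3 was 1.64-fold higher in Nr4a-TKO (0.71 ± 0.16, limma adjusted p = 0.0156) and 1.56-fold higher in WT Treg (0.64 ± 0.16, adjusted p = 0.0281). In Foxp3-KO the value was 0.19 ± 0.16 with a 95% interval of -0.21 to 0.58 (adjusted p = 0.403).

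Precursor against precursor, Ikzf3 had a value 0.53 ± 0.16 higher in Nr4a-TKO than in Foxp3-KO, just short of the threshold (limma adjusted p = 0.0516). Nr4a-TKO and WT Treg differed by 0.07 (95% interval -0.32 to 0.47, adjusted p = 0.748), and Foxp3-KO and WT Treg by -0.45 (95% interval -0.85 to -0.06, adjusted p = 0.153). The calls over WT Tconv depended on single arrays, and the WT Treg call also on the processing. The WT Treg call was lost in 8 of 18 alternatives. These included median scaling, no filter on dim probes and a fit of only the 2 groups. Without WT Tconv replicate 2, the lowest array, the differences were 0.51 in Nr4a-TKO and 0.44 in WT Treg, and neither passed (limma adjusted p = 0.0614 and 0.111). The Nr4a-TKO call was also lost without Nr4a-TKO replicate 1 or 2 (adjusted p = 0.0755 and 0.0509), and the WT Treg call without WT Treg replicate 1 or 2 (adjusted p = 0.057 and 0.125) or either Nr4a-TKO array (adjusted p = 0.0504).

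Aiolos and Ikaros are also made by B cells, and B cell markers were raised in Nr4a-TKO over the wild-type groups. Of 6 tested, 5 were called higher in Nr4a-TKO than in WT Tconv and 4 than in WT Treg. Of all tested genes, 21.4% and 19.4% were. None was called in the other comparisons. Of 7 such markers, 6 to 7 were well above background in Nr4a-TKO arrays, 4 to 6 in Foxp3-KO, 3 to 4 in WT Treg and 3 in WT Tconv, where Ms4a1, Cd79a, Ebf1 and Pax5 were at background. Their summed signal, in units of the 75th percentile of the array, was 15.9 to 62.2 in Nr4a-TKO, 4.68 to 19.0 in Foxp3-KO, 4.19 to 5.73 in WT Treg and 2.14 to 2.24 in WT Tconv. Without Nr4a-TKO replicate 1, the array with the highest sum, Ikzf3 was 0.67 above WT Tconv in Nr4a-TKO, against 0.71 with both arrays. The remaining Nr4a-TKO array still had a sum of 15.9, above WT Tconv, so this is no test of a B cell part in Ikzf3. Of 4 plasma cell and 8 myeloid markers, 3 to 4 and 8 were above background in Nr4a-TKO arrays. In Foxp3-KO arrays these counts were 2 to 3 and 6 to 8, in WT Treg 2 and 7, and in WT Tconv, where both were lowest, 1 and 4 to 5. Markers of CD8 and double-positive thymocytes summed to 23.1 to 23.4 in WT Tconv and 14.2 to 21.7 in Foxp3-KO. The sums were 3.54 to 5.97 in Nr4a-TKO and 4.12 to 6.04 in WT Treg. WT Tconv was highest and Foxp3-KO next, as for Ikzf1, but Dntt was the brightest of these markers and weighed most in the sums. Its mean log2 signal was 4.28 in WT Tconv and 3.69 in Foxp3-KO. Cd8b1 and Rag2 were also lower in Foxp3-KO than in WT Tconv. Rag1 (0.20 against -1.32), Ptcra (-1.29 against -1.79) and Cd8a (-0.39 against -1.02) were higher, and none of the list passed there. The part of these cells in the values of the family was not tested.

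Ikzf5 encodes Pegasus. Its brighter probe was at 0.81 and 0.63 in Nr4a-TKO precursors, 1.10 and 1.17 in Foxp3-KO precursors, 1.07 and 1.01 in WT Treg, and 1.15 and 1.12 in WT Tconv. The Nr4a-TKO arrays were the lowest, and the other 6 lay close together. Nr4a-TKO was 1.34-fold lower than WT Tconv (-0.42 ± 0.09, limma adjusted p = 0.0122), 1.25-fold lower than WT Treg (-0.32 ± 0.09, adjusted p = 0.0367) and 1.34-fold lower than Foxp3-KO (-0.42 ± 0.09, adjusted p = 0.018). The second Ikzf5 probe gave the opposite sign in all 3, at 0.25, 0.14 and 0.29, and none passed (limma adjusted p = 0.0953, 0.309 and 0.0789). With the mean of the 2 probes no Ikzf5 call was left, so a direction for Ikzf5 rests on 1 probe. The call against WT Treg was lost in 11 of 19 alternatives. Besides the mean of the probes, these included median scaling, normexp background correction, no filter on dim probes and a fit of only the 2 groups. The replicate number as a block also lost it (limma adjusted p = 0.0515). The call against Foxp3-KO was likewise lost in a fit of only the 2 groups. Without single arrays, calls were lost against WT Treg for either WT Tconv or WT Treg array or Nr4a-TKO replicate 2 (adjusted p = 0.0805 to 0.142). They were lost against WT Tconv for either WT Tconv array (0.0771 and 0.0628), and against Foxp3-KO for Nr4a-TKO replicate 2 or Foxp3-KO replicate 2 (0.0648 and 0.0591). In the 3 comparisons without Nr4a-TKO, Ikzf5 differed by -0.10 to 0.10 and none passed.

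**Figure D4:**
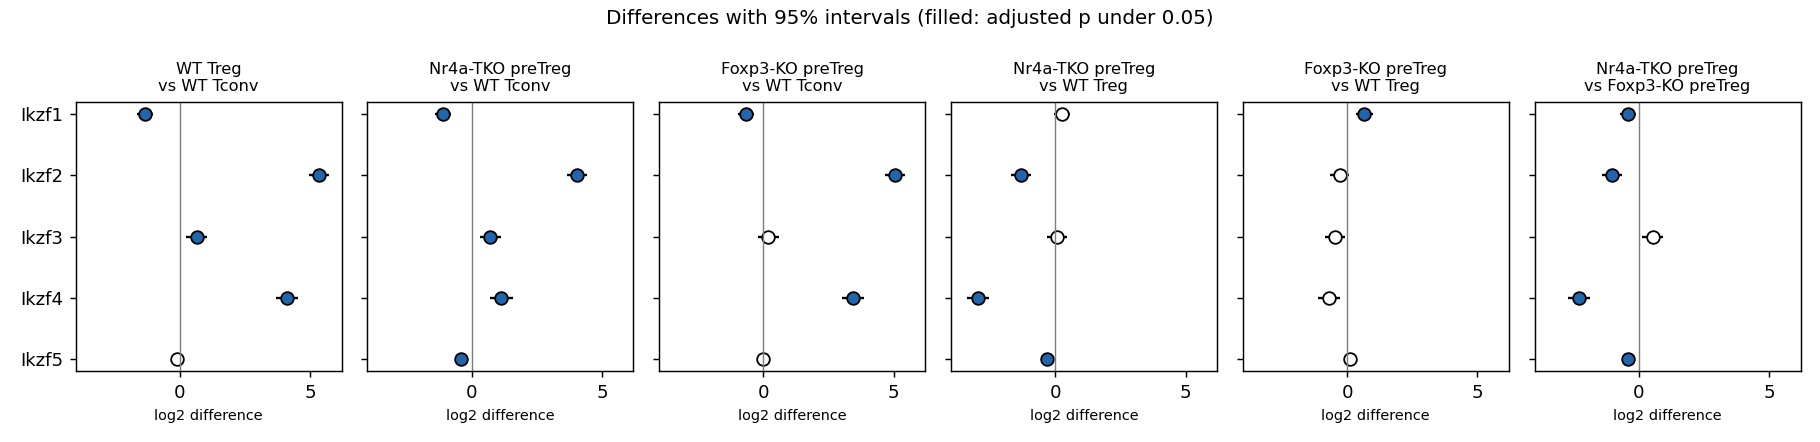
Log2 differences of the 5 family genes in the 6 comparisons (horizontal axis), with 95% intervals from the limma fit and filled points where the adjusted p was under 0.05. Ikzf2 and Ikzf4 lie right of 0 in the 3 comparisons with WT Tconv and left of 0 where Nr4a-TKO is set against WT Treg or Foxp3-KO.

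The share of the family that passed must be read against a background in which many genes passed. In WT Treg against WT Tconv, 3 members were higher and 1 lower, where 35.4% of all tested genes were called (13.8% higher and 21.5% lower). In Nr4a-TKO against WT Tconv, 3 members were higher and 2 lower, where 48.2% of genes were called (21.4% higher and 26.8% lower). In Foxp3-KO against WT Tconv, 2 members were higher and 1 lower, where 24.6% of genes were called (10.4% higher and 14.3% lower). Between Nr4a-TKO and WT Treg, 3 members were lower and 0 higher, where 35.4% of genes were called (19.4% higher and 15.9% lower). Between Foxp3-KO and WT Treg, 1 member was higher and 0 lower, where 6.41% of genes were called (3.48% higher and 2.93% lower). Between Nr4a-TKO and Foxp3-KO, 4 members were lower and 0 higher, where 33.8% of genes were called (18% higher and 15.7% lower). With 5 members, these counts are not read as a result about the family. The split of calls over all genes moved with the scaling. With arrays scaled to their median, 25.8% of the calls in WT Treg against WT Tconv were higher, against 39.1% with the 75th percentile, and 22.5% in Foxp3-KO against WT Tconv, against 42.1%. In Nr4a-TKO, 67.1% of the calls against WT Treg were higher with median scaling, against 55%, and 66.7% of those against Foxp3-KO, against 53.4%.

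The genes whose log2 signal followed each member most closely over the 8 arrays were named by Pearson r, as a description over arrays that fall into 4 groups. Ikzf4 was followed by Tmem123 (r = 0.998), Gm5796 (0.996) and 4930555G01Rik (0.996). Tmem123, a transmembrane mucin-like protein, averaged 3.18 in Nr4a-TKO, 3.90 in Foxp3-KO, 4.10 in WT Treg and 2.83 in WT Tconv, over a narrower range than Ikzf4. Ikzf2 was followed by Rasgef1a, a Ras exchange factor (0.993), Gsap (0.992) and Nt5dc3 (0.992), and Rasgef1a averaged 1.02, 1.33, 1.58 and -1.45 in Nr4a-TKO, Foxp3-KO, WT Treg and WT Tconv. Ikzf1 was followed by Pxylp1 (0.997), Farsb, a subunit of phenylalanyl-tRNA synthetase (0.995), and Chdh, choline dehydrogenase (0.993).

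Ikzf3 had few close followers, with Atp6v1g2, a subunit of the vacuolar proton pump (0.972), Bmpr2, a BMP receptor (0.958), and Arid5b, a chromatin regulator (0.952), as the 3 nearest. Ikzf5 was followed by 2810013P06Rik (0.990), Stam, an endosomal sorting adaptor (0.989), and Sugct (0.988). Of 13497 other genes, 154 had r above 0.95 with Ikzf1, 90 with Ikzf2, 116 with Ikzf4, 77 with Ikzf5 and 3 with Ikzf3.

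The NuRD complex is the corepressor most closely tied to Ikaros, and 13 of 13 listed subunits were tested. Nr4a-TKO precursors had 1 subunit higher and 4 lower than WT Tconv, with a list median of -0.14 against -0.10 over all tested genes. These 5 of 13 are no more than the 48.2% of all genes called in that comparison, and the counts of this and the following lists are to be read against the shares given above. The largest of these was Chd3, a Mi-2 remodelling ATPase, 1.99-fold lower (-1.0 ± 0.17, limma adjusted p = 0.00666), followed by Mta1 (-0.54), Gatad2b (-0.42) and the histone chaperone Rbbp4 (-0.39). Against WT Treg, 2 subunits were higher and 4 lower in Nr4a-TKO (median -0.14, against 0.01 over all genes), with the histone deacetylase Hdac1 at -0.60 ± 0.07 (limma adjusted p = 0.00361), Chd3 at -0.97 and Gatad2b at -0.47 among the lower and the methyl-CpG binding protein Mbd2 at 0.30 among the higher. Against Foxp3-KO, 1 subunit was higher and 3 lower in Nr4a-TKO (median -0.13, against 0.02), Hdac1 at -0.55, Rbbp4 at -0.32 and Chd3 at -0.72.

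In the comparisons without Nr4a-TKO, WT Treg had 1 subunit higher than WT Tconv, Hdac1 at 0.41, and 3 lower, Rbbp4 at -0.31, Mta2 at -0.31 and Rbbp7 at -0.25 (median 0.01, against -0.09 over all genes). Foxp3-KO precursors had Hdac1 higher than WT Tconv at 0.36 and no subunit lower (median -0.07, against -0.10), and none of the 13 passed between Foxp3-KO and WT Treg (median -0.04, against 0.00).

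Of 6 other corepressors, Ctbp2 was the one called higher in all 3 populations than in WT Tconv, where its probes were not well above background. Against the background level, Ctbp2 was at least 5.23-fold higher in Nr4a-TKO (limma adjusted p = 0.00576), at least 4.03-fold higher in Foxp3-KO (adjusted p = 0.0175) and in WT Treg at least 2.92-fold higher (adjusted p = 0.0193). These adjusted p-values belong to the fitted differences and do not test the bounds. Ctbp1, a relative of Ctbp2, was lower by small amounts, -0.25 in Nr4a-TKO and -0.33 in WT Treg. Rcor1, a subunit of the CoREST corepressor, was lower in Nr4a-TKO (-0.44). In all, 1 was higher and 2 lower in Nr4a-TKO (median -0.21, against -0.10 over all genes), 1 higher and 0 lower in Foxp3-KO (median -0.02, against -0.10), and 1 higher and 1 lower in WT Treg (median -0.03, against -0.09). None passed between Nr4a-TKO or Foxp3-KO and WT Treg, and Rcor1 alone, at -0.42, passed between Nr4a-TKO and Foxp3-KO.

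Cereblon, encoded by Crbn, is the receptor through which thalidomide analogues lead to degradation of Ikaros and Aiolos in human cells, and casein kinase 2 phosphorylates Ikaros. Of 8 genes of the cereblon ligase and this kinase, Crbn was lower in Nr4a-TKO than in each of the other populations. It averaged 1.03 ± 0.01 in Nr4a-TKO, 1.69 ± 0.14 in Foxp3-KO, 1.37 ± 0.02 in WT Treg and 1.41 ± 0.00 in WT Tconv (SD, n = 2 each). The differences from Nr4a-TKO were -0.66 against Foxp3-KO (limma adjusted p = 0.00525), -0.34 against WT Treg (adjusted p = 0.0301) and -0.38 against WT Tconv (adjusted p = 0.016). Ddb1, the adaptor of the ligase, and the kinase subunit Csnk2b were higher in Nr4a-TKO than in WT Treg, at 0.26 and 0.33, and than in Foxp3-KO, at 0.34 and 0.28, while Cul4a was lower than in Foxp3-KO at -0.31. Rbx1 was lower in WT Treg than in WT Tconv at -0.31. No gene of the list passed in Foxp3-KO against WT Tconv or WT Treg. The list medians were -0.20, -0.08 and -0.08 in Nr4a-TKO, Foxp3-KO and WT Treg against WT Tconv, beside -0.10, -0.10 and -0.09 over all genes.

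Of 18 genes reported elsewhere as targets of Ikaros family proteins, 15 were tested, and Hes1, Nrarp and Igll1 were too dim. In Nr4a-TKO precursors 4 were higher and 8 lower than in WT Tconv (median -0.54, against -0.10 over all genes). Cdkn1a, the cell cycle inhibitor p21, which was not well above background in WT Tconv, was at least 64.2-fold higher. The limma adjusted p of 0.000183 for Cdkn1a belongs to the fitted difference and does not test this bound. The survival gene Bcl2 was 3.34-fold lower (-1.74 ± 0.18, adjusted p = 0.0018), the terminal transferase Dntt 9.05-fold lower (-3.18 ± 0.36, adjusted p = 0.00219), and Myc was lower by a log2 difference of -0.72 (adjusted p = 0.0029). Against WT Treg 5 were higher and 3 lower (median 0.07, against 0.01), with the cytokine gene Il2 at 1.32 ± 0.21 in Nr4a-TKO and -3.72 ± 0.25 in WT Treg (SD, n = 2 each, limma adjusted p = 0.0194). Il2 was not well above background on WT Treg replicate 2, so the size of this difference is uncertain, and it was as low in WT Tconv, at -3.68.

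In WT Treg 2 of the 15 were higher and 5 lower than in WT Tconv (median -0.36, against -0.09). Cdkn1a was at least 3.99-fold higher and the repressor gene Bcl6 was 3.36-fold higher (1.75 ± 0.21, limma adjusted p = 0.00349), while Dntt (-2.53) and Cd4 (-0.61) were lower. In Foxp3-KO precursors 2 were higher than in WT Tconv and 0 lower (median 0.06, against -0.10). These were Cdkn1a, at least 6.32-fold higher, and Bcl6, at 2.07. Against WT Treg, Foxp3-KO precursors had 2 higher, Dntt at 1.94 and Cd8a at 1.85 (median 0.66, against 0.00). Both are also on the list of CD8 and double-positive thymocyte markers, whose sums are given above. Between Nr4a-TKO and Foxp3-KO, 2 were higher and 5 lower (median -0.29, against 0.02), among them Cdkn1a at 3.34, Dntt at -2.59, Bcl2 at -1.23 and Myc at -0.56.

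**Figure D5:**
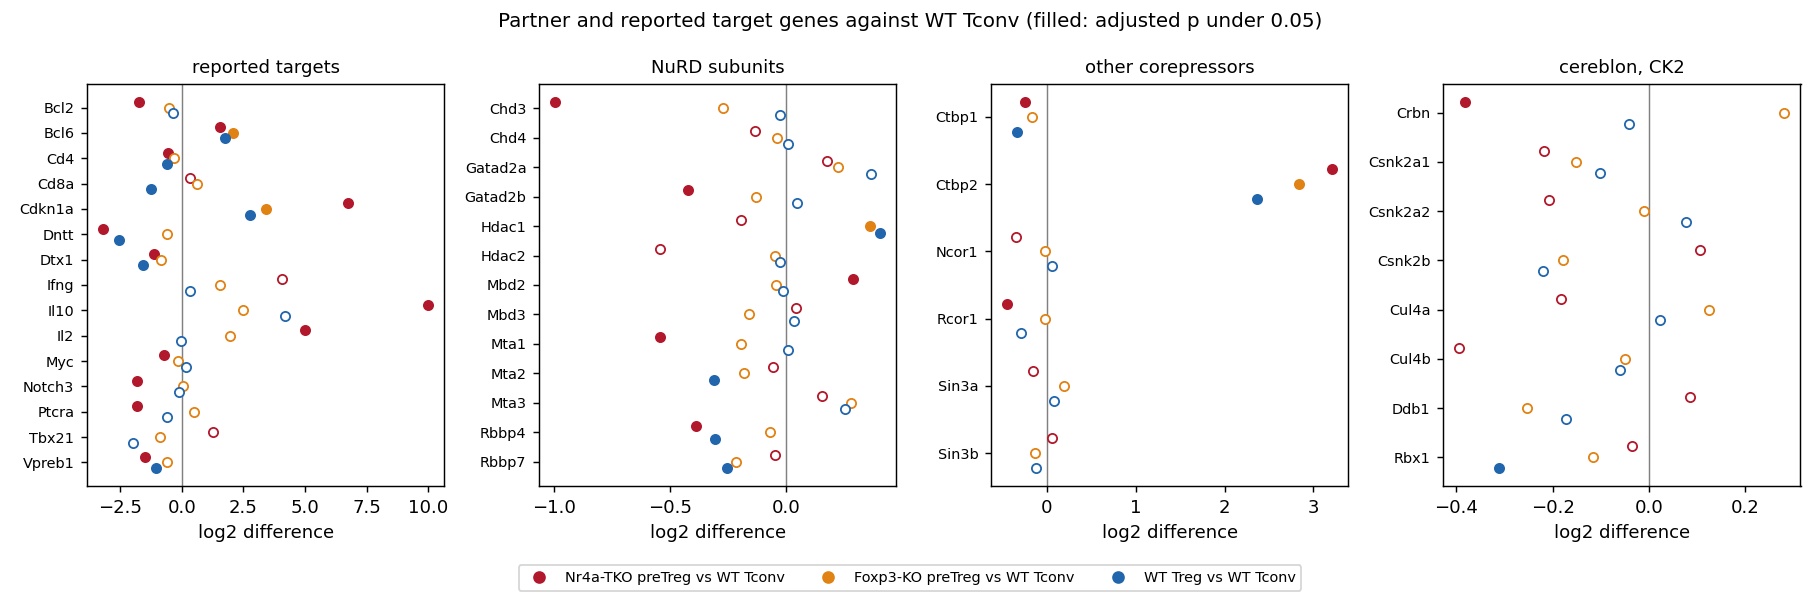
Log2 differences against WT Tconv (horizontal axis, own scale per panel) of reported target genes, NuRD subunits, other corepressors, and cereblon ligase and CK2 genes in Nr4a-TKO preTreg (red), Foxp3-KO preTreg (orange) and WT Treg (blue). Filled points passed the limma threshold, and Cdkn1a, Ctbp2 and Il10, not well above background in WT Tconv, are drawn at fitted values that are not bounds.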

How the data were processed

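RNA of 8 samples, 2 per group, was labelled with Cy3, per the labels' protocols. Per the file headers, the spot intensity values used had been corrected for background and spatial trends but not normalized between arrays. The scanner software was Agilent Feature Extraction, version 10.7.1.1, a name also in the submitters' processing notes. The deposited matrix of linear intensity, scaled by the authors to a 75th percentile of about 1, was an alternative.

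Control spots (3671 of 62976) and outlier spots were dropped. The number of saturated spots was 0. Log2 values were averaged over the spots of a probe and set relative to each array's 75th percentile. Symbols came from RefSeq accessions in a table of GRCm38.p6, which named 28026 probes. The files are annotated on another build, so no probe coordinates are given. The brightest probe stood for a gene, tested if well above background on both arrays of at least 1 group. All groups were fitted in limma 3.58.1 under R 4.3.3 (4 residual and 1.59 prior degrees of freedom, with Benjamini-Hochberg adjustment within a comparison). The procedure was also run on simulated data, but no result of that run is given here, so it does not vouch for the fit. The fit shares its estimate of the spread over the groups. The root mean square SD of replicates differed between groups, for example 0.183 in WT Tconv and 0.473 in Foxp3-KO. The number of arrays limits the precision. A fold of a gene not well above background in a group is a bound, the mean of the bright group over the background level of the dim group.

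The members and gene lists were chosen with earlier results of these data known. Of the genes listed, 2 are not reported here, and the list counts, medians and sums leave them out. Named genes are the members, the targeted genes, up to 4 tested genes per list with the smallest adjusted p, and the 3 genes most like each member by Pearson r. The lists of dendritic cell, NK cell, stroma and red cell markers were also computed. In Nr4a-TKO against WT Tconv, 2 of 5, 2 of 7, 2 of 4 and 1 of 1 tested genes of these 4 lists were higher, and 1, 2, 1 and 0 were lower. Of 9 conventional T cell genes, 8 were lower in that comparison. NK and innate-like lymphocyte markers summed to 55.6 in Foxp3-KO replicate 1, the highest of all arrays, and 14.0 in replicate 2. B cell, plasma cell and myeloid sums were also higher in that array (19.0, 21.1 and 65.0) than in replicate 2 (4.68, 3.40 and 44.7). CD8 and double-positive (14.2 against 21.7), stroma and red cell sums were lower. What such cells add to the Foxp3-KO values was not tested. Alternatives were 2 other scalings, normexp with an offset of 50 on median signals, the deposited matrix, 2 other filters, the mean of the probes, each other probe, an intensity trend, only the groups compared, the replicate block and leaving out each array. Replicate numbers were not treated as pairs. Figures were drawn with matplotlib 3.10.9.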

Additional observations from a re-analysis of the deposited data

How the results depend on the processing

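Ikzf2 kept its direction and its side of the threshold in 113 of 114 alternatives over the 6 comparisons, and Ikzf4 in 114 of 120. The exception for Ikzf2 was Nr4a-TKO against Foxp3-KO in a fit of only the groups compared (limma adjusted p = 0.0598). Calls of Ikzf1, Ikzf3 and Ikzf5 changed more often, with 81 of 114, 89 of 108 and 85 of 114 unchanged. Directions turned for Ikzf1 in Nr4a-TKO against WT Treg with its other probe (-0.23), and for Ikzf4 in Nr4a-TKO against WT Tconv with its dim probe (-0.21). They turned for Ikzf3 in Foxp3-KO against WT Tconv when 1 array was left out (-0.016 without WT Tconv replicate 2, up to 0.39 without WT Tconv replicate 1), and in Nr4a-TKO against WT Treg (-0.052 without WT Treg replicate 1, up to 0.19 without WT Treg replicate 2). For Ikzf5 in Foxp3-KO against WT Tconv they turned with quantile normalization (0.018) and without WT Tconv replicate 1 (0.017) or Foxp3-KO replicate 1 (0.036), in a range from -0.037 without Foxp3-KO replicate 2. With its other probe Ikzf5 turned in Foxp3-KO against WT Treg (-0.14), Nr4a-TKO against Foxp3-KO (0.29), WT Tconv (0.25) and WT Treg (0.14), and WT Treg against WT Tconv (0.10). With the mean of its probes it turned in Foxp3-KO (-0.022 against WT Treg) and in WT Treg (0.0016 against WT Tconv). The cause was not tested.

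The count of members called in Foxp3-KO against WT Treg was 1, but 0 with median scaling, no filter on dim probes, or only the 2 groups in the fit (4 members at an unadjusted p under 0.05 in limma), and 2 with an intensity trend. In Nr4a-TKO against Foxp3-KO the count was 4, but 2 with the mean of the probes and 1 with only the 2 groups. Over all genes, Foxp3-KO against WT Tconv gave 3326 calls, against 5027 with median scaling, 2146 with no filter and 1285 with only the 2 groups. Foxp3-KO against WT Treg gave 865, against 400 with no filter, 1305 with a trend and 0 with only the 2 groups (2287 at an unadjusted p under 0.05 in limma). Nr4a-TKO against Foxp3-KO gave 4558, against 7371 with no filter and 893 with only the 2 groups. Median scaling put the median of all genes at -0.17 in Nr4a-TKO, -0.25 in Foxp3-KO and -0.23 in WT Treg against WT Tconv.

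Leaving out each array in turn gave 3080 to 7182 calls in Nr4a-TKO against WT Tconv, 470 to 4141 in Foxp3-KO against WT Tconv and 1655 to 5734 in WT Treg against WT Tconv. It gave 2121 to 5837 in Nr4a-TKO against WT Treg, 71 to 1342 in Foxp3-KO against WT Treg and 2027 to 5336 in Nr4a-TKO against Foxp3-KO. The lowest counts came without WT Tconv replicate 1 in the first 3, without WT Treg replicate 2 in the next 2, and without Nr4a-TKO replicate 1 in the last. Members called ranged over 3 to 5, 2 to 3, 3 to 4, 2 to 3, 0 to 2 and 2 to 4 in that order. An array left alone in its group is assumed to vary like the others.

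With the replicate number as a block, members called were 0 in Foxp3-KO against WT Treg and 3 in Nr4a-TKO against Foxp3-KO, and 4487 genes were called in Nr4a-TKO against WT Treg, where 2 members were. The labels say nothing of what a number shares. The deviations of same-numbered arrays correlated at 0.15 to 0.26 among Nr4a-TKO, Foxp3-KO and WT Treg and at -0.03 to -0.01 with WT Tconv. With 2 arrays a group, small differences are uncertain, among them those of Ikzf3 and the dim Ikzf4 probe, which lay below the 75th percentile of signal.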
